A study of Mus musculus with 6 samples.

Results

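The 30 genes described here make cholesterol and fatty acids, control that synthesis, or carry cholesterol out of the cell. They were chosen by symbol from the pathway that sterol regulatory element binding proteins (SREBPs) drive, and their probes were found through the RefSeq accessions in the scanner files. All 30 had a probe on the array, so the set is 30 of the 16535 named genes, with 49 of 41174 probes. They were measured in Lhx2 cells, a mouse blood progenitor line kept dividing by enforced expression of the transcription factor Lhx2 and dependent on stem cell factor and interleukin 6. In both groups the fetal calf serum was replaced by bovine serum albumin overnight, so untreated and treated cells alike had been without serum. TGF-β1 was then given to the treated group in a dose of 10 ng/ml and RNA was taken 2 h later; the untreated group received none. Each group has 3 arrays from 3 independent RNA harvests, and the replicate number pairs an untreated with a treated array of the same harvest. The cells are 1 line that carries the same enforced factor in both groups.

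Cells build cholesterol from acetyl-CoA through mevalonate, squalene and lanosterol, and they build fatty acids from the same acetyl-CoA. When the membrane of the endoplasmic reticulum is poor in cholesterol, SREBPs are cut free and switch on the enzymes of both routes. The INSIG proteins hold SREBPs back when sterols are plentiful. Cholesterol in excess gives rise to oxysterols, which activate the liver X receptors (LXRs), and these switch on the exporters ABCA1 and ABCG1. Both systems are known in blood progenitors, where loss of the exporters raises proliferation.

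Values are log2 fluorescence minus the 75th percentile of the same array, so 0 is that percentile and a difference of 1 is a doubling. The 75th percentile lay between 794.2 and 1031 intensity units, with untreated replicate 3 lowest, and 83.1% to 90.5% of spots were well above background. Between the groups these measures gave p = 0.4 and p = 0.5 by an exact two-sided permutation test, in which 3 against 3 arrays cannot go below 0.1. All 30 genes were well above background on all 6 arrays and no spot was saturated. The blood progenitor markers Kit, Cd34, Ptprc, Gata2 and Myb were well above background on every array, as was the Lhx2 probe itself, which was dim (-4.3 on average). Stromal markers differed between harvests: 5 of 6 passed the harvest test, and their summed signal, in multiples of the 75th percentile, was 21.4 and 24.8 in harvest 1 (untreated, then treated), 65.8 and 63.1 in harvest 2, and 1.48 and 1.77 in harvest 3, with Dcn the brightest. Macrophage markers summed to 13.6 to 22.1 in untreated and 14.1 to 23.0 in treated cells, and the treated sum was the higher in each pair. Of the 4 measured, only Csf1r was higher in all 3 pairs (by 0.39, 0.47 and 0.33), while Adgre1, the brightest, changed by -0.08. Adipocyte markers summed to 2.46, 0.780 and 1.32 in untreated and 1.47, 0.501 and 0.819 in treated cells, lower in each pair though the ranges overlap. This followed Fabp4, a fatty acid binding protein that macrophages also make, which differed by -0.84, -0.96 and -0.97 in the pairs (log2 change -0.93, SE 0.72; adjusted p = 0.0553 with the block); the other 4 adipocyte markers, Adipoq among them, lay between -5.99 and -2.94 and did not share a direction. Mast cell and lymphoid marker sums were lower in each pair too, again with overlapping ranges. The part of these cells in any result was not tested, and in bulk RNA fewer cells of a type and less RNA per cell cannot be told apart.

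After 2 h of TGF-β1 the enzymes of sterol synthesis were slightly lower and the exporters higher, but no gene of the set passed the test. In the limma fit, with p-values adjusted by Benjamini-Hochberg across all 29192 features tested, 0 of the 30 members passed, beside 0.253% of all features. With harvest as a block the count was also 0 of 30, beside 0.651% of all features. The smallest adjusted p was 0.290 without and 0.0948 with the block, both for Abcg1. At an unadjusted p under 0.05 the members numbered 2 (beside 5.77% of all features): Sqle was lower, beside 2.15% of all features, and Abcg1 higher, beside 3.62%. With the block they numbered 8 (beside 10.9%), of which 6 were lower (Hmgcs1, Fdft1, Sqle, Lss, Sc5d and Acly; beside 5%) and 2 higher (Abca1 and Abcg1; beside 5.87%).

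The sign of the small differences was uneven over the set. The log2 change was below 0 in 23 of 30 members, beside 51.4% of all features, and 17 of 30 were lower in all 3 pairs, beside 20% of all features. The median over the members was -0.19, against -0.01 over all features. In single pairs the members' median was -0.06, -0.12 and -0.30 in pairs 1, 2 and 3, while that of all features was -0.07, -0.07 and 0.11. In pair 1 the members therefore lay level with the array as a whole, and the third pair stood farthest from it. Pair 3 is also the only pair split over the slides, with its untreated array on slide 1 and its treated array on slide 2. Treatment and slide therefore cannot be told apart within pair 3. Without harvest 3, that is in pairs 1 and 2 alone, 21 of 30 members were below 0, beside 63.8% of all features, and the members' median was -0.11 against -0.07 over all features. Without untreated replicate 3 alone, which leaves its treated partner in, 15 of 30 were below 0, beside 56.7% of all features, and the members' median was -0.02.

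**Figure D1:**
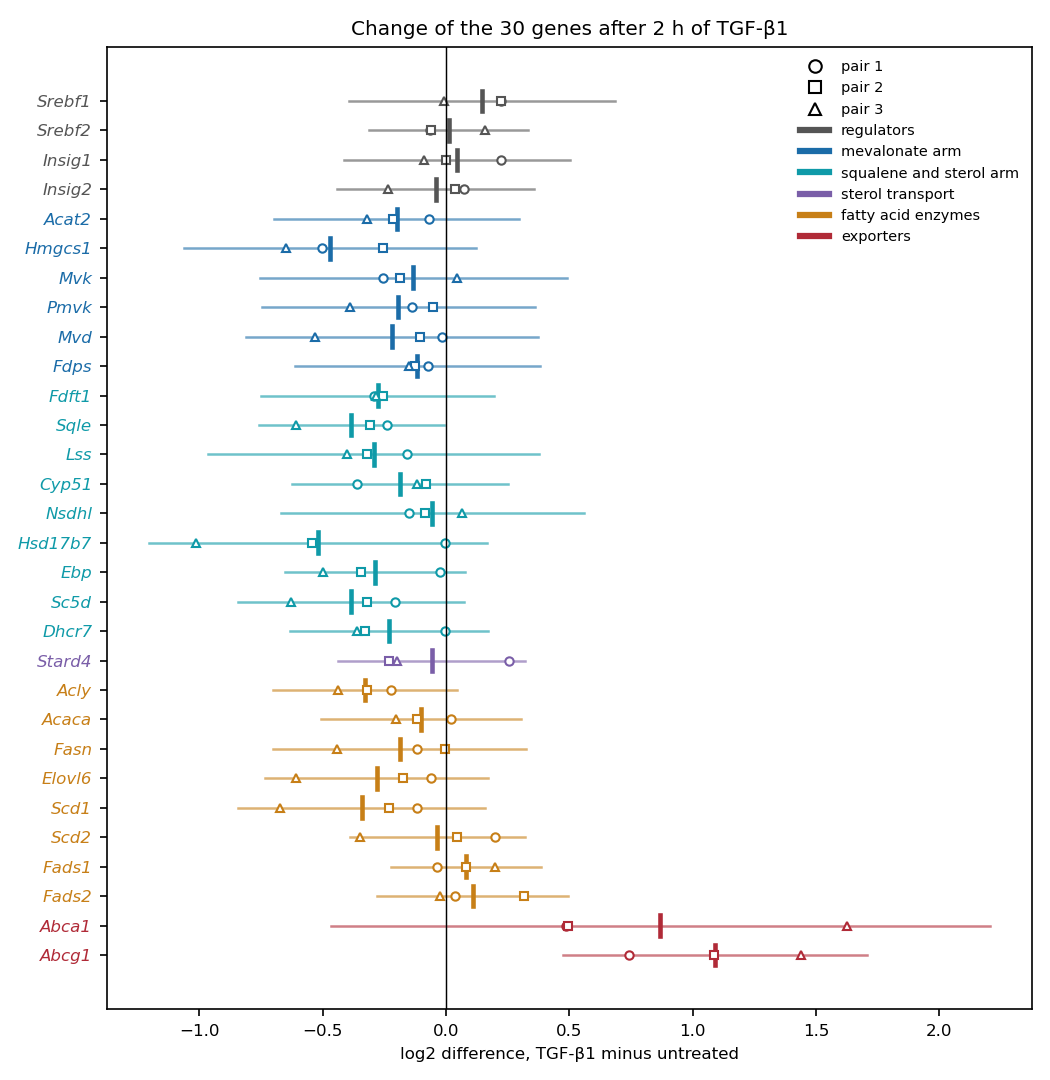
Log2 difference between TGF-β1 and untreated cells for each of the 30 genes, coloured by role; vertical ticks are the fitted changes, horizontal lines the 95% confidence intervals of the fit without the block, and open symbols the 3 same-numbered pairs. All 15 sterol synthesis enzymes (mevalonate arm, squalene and sterol arm) have ticks left of 0, and Abca1 and Abcg1 lie farthest right.

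The 4 regulators showed no common direction. Srebf1 encodes the SREBP best known for fatty acid genes and is itself an LXR target; it read 4.15, 3.61 and 4.21 in untreated and 4.37, 3.83 and 4.20 in treated cells, a log2 change of 0.15 (SE 0.23, 95% interval -0.39 to 0.68). Srebf2 encodes the SREBP best known for sterol genes; it read 0.9985, 1.11 and 1.05 against 0.94, 1.05 and 1.21, a change of 0.01 (interval -0.31 to 0.33). Insig1, an SREBP target that feeds back on SREBP release, read -1.05, -1.12 and -0.63 against -0.82, -1.12 and -0.72, a change of 0.05 (interval -0.41 to 0.50). Insig2 changed by -0.04 (interval -0.44 to 0.36). The groups overlapped for all 4 genes, and each interval spans changes larger than those of most of the enzymes.

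The mevalonate arm turns acetyl-CoA into farnesyl diphosphate. All 6 of its measured enzymes were below 0 and 5 were lower in all 3 pairs, with a median of -0.20 (-0.11, -0.16 and -0.35 by pair); none passed the test. Hmgcs1, HMG-CoA synthase, which makes the precursor of mevalonate, had the largest difference of the arm. It read 5.20, 5.40 and 5.93 in untreated cells (mean 5.51 ± 0.38, SD, n = 3) and 4.69, 5.15 and 5.28 in treated cells (5.04 ± 0.31). Treated cells were lower in every pair, by -0.50, -0.26 and -0.65. The groups still overlapped, as the treated value of harvest 3 (5.28) lay above the untreated value of harvest 1 (5.20). The log2 change was -0.47, or 1.39-fold lower (SE 0.25, interval -1.06 to 0.12, adjusted p = 1); with the block the SE was 0.13 and the adjusted p 0.281. Under 1 of the settings added later, normexp background with quantile normalization and the block, the change of -0.44 passed (adjusted p = 0.0200, beside 3.38% of all features).

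The other members of the arm differed less. Mvd, the decarboxylase that makes isopentenyl diphosphate, changed by -0.22 (SE 0.25). Acat2, the thiolase that joins acetyl-CoA units, changed by -0.20 (SE 0.21), and Pmvk, phosphomevalonate kinase, by -0.19 (SE 0.23). Mvk, mevalonate kinase, changed by -0.13 (SE 0.26) and was the only gene of the arm above 0 in a pair, the third. That held for its brighter probe, while its other probe was lower in all 3 pairs, with a change of -0.22. Fdps, farnesyl diphosphate synthase, changed by -0.12 (SE 0.21). Each of these changes, on the brightest probe of the gene, is no larger than its standard error in the fit without the block. With the block the standard errors were 0.10 to 0.14, smaller than each change, and no unadjusted p was under 0.05.

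The second arm joins farnesyl units into squalene and works it into cholesterol. All 9 of its enzymes were below 0 and 8 were lower in all 3 pairs, with a median of -0.29 (-0.16, -0.32 and -0.40 by pair); again none passed. Sqle, squalene epoxidase, a rate-limiting step, read 3.51, 3.47 and 3.87 in untreated cells (3.62 ± 0.22, SD, n = 3) and 3.27, 3.16 and 3.26 in treated cells (3.23 ± 0.06). Every treated array lay below every untreated one. The log2 change was -0.38, or 1.30-fold lower (SE 0.16, interval -0.76 to -0.01, adjusted p = 0.841). Sc5d, a sterol desaturase late in the route, read 2.29, 2.18 and 2.75 against 2.08, 1.86 and 2.12, a change of -0.39 (SE 0.19, interval -0.84 to 0.07). Ebp, the sterol isomerase, read 4.37, 4.35 and 4.59 against 4.35, 4.01 and 4.10, a change of -0.29 (SE 0.15, interval -0.65 to 0.08). Sqle, Sc5d and Ebp were the enzymes of the arm whose groups did not overlap; over the whole set 4 of 30 members had treated below untreated, beside 5.05% of all features, the fourth being Acly.

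Hsd17b7, a ketoreductase of sterol demethylation, had the lowest log2 change of the set. On its brighter probe it read 0.81, 0.52 and 1.32 in untreated cells (0.89 ± 0.40, SD, n = 3) and 0.81, -0.02 and 0.31 in treated cells (0.37 ± 0.42), a change of -0.52, or 1.43-fold lower (SE 0.29, interval -1.20 to 0.17, adjusted p = 1). On this probe pair 1 showed no difference, whereas pair 3 differed by -1.01. A second probe, also well above background on all 6 arrays, read -0.39, -0.52 and -0.17 in untreated and -0.90, -1 and -0.99 in treated cells, a change of -0.60. On the second probe pair 1 was lower too, and the groups did not overlap. Fdft1, squalene synthase, was the most even over the pairs of these enzymes: 2.42, 2.54 and 2.91 against 2.13, 2.28 and 2.62, with pair differences of -0.29, -0.26 and -0.28. Its change of -0.28 is 1.21-fold (SE 0.20, and 0.10 with the block, adjusted p = 0.436 with the block). The level of Fdft1 thus moved more between harvests than the difference within them did, though Fdft1 did not pass the harvest test. Lss, lanosterol synthase, changed by -0.29 (SE 0.28), Dhcr7, the reductase of the last step, by -0.23 (SE 0.17), Cyp51, the lanosterol demethylase, by -0.19 (SE 0.18), and Nsdhl, a dehydrogenase of the demethylation steps, by -0.06 (SE 0.26). On this probe, its brightest, Nsdhl was above 0 in the third pair. The other Nsdhl probes, also well above background on all 6 arrays, were lower in all 3 pairs, with changes of -0.18 and -0.17.

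**Figure D2:**
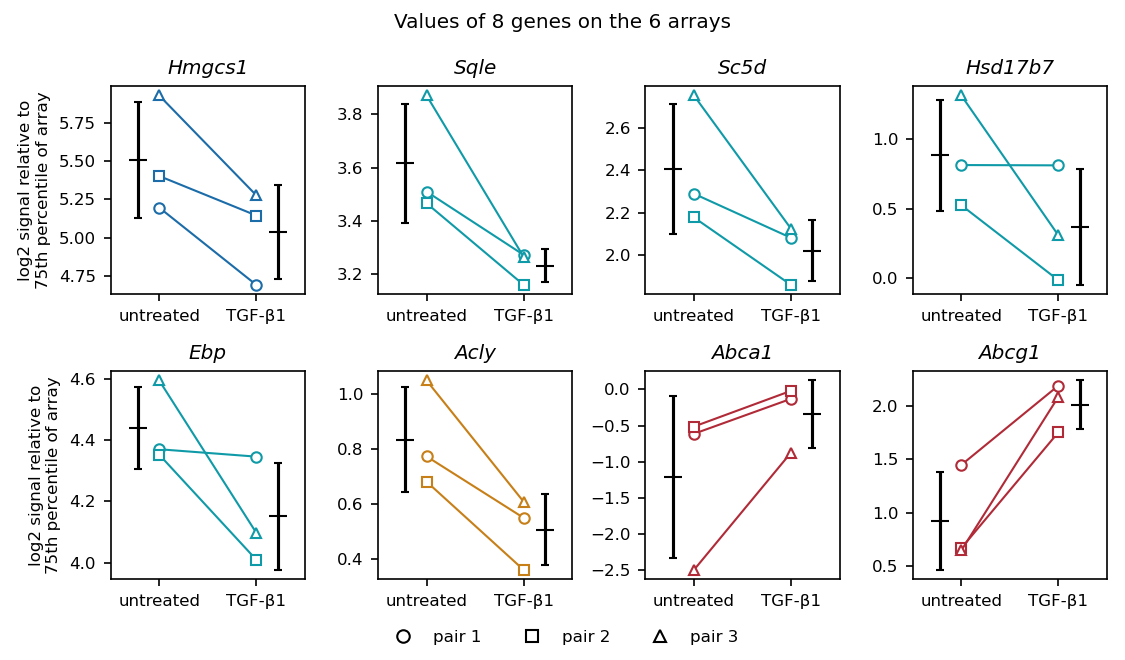
Log2 signal relative to the 75th percentile of the array for 8 of the genes, untreated at left and TGF-β1 at right of each panel; lines join the same-numbered pair and black bars give the mean ± SD of 3 arrays. Each panel has its own axis range; Sqle, Sc5d, Ebp, Acly and Abcg1 have groups that do not overlap, and Abca1 in untreated replicate 3 lies at -2.50.

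Over both arms, 15 of 15 sterol synthesis enzymes were below 0 and 13 were lower in all 3 pairs, with a median of -0.23. In pairs 1 and 2 alone, without harvest 3, 15 of 15 were below 0 and the median was -0.22, against -0.07 over all features. Leaving out a single array unpairs its harvest and moved the value further. The median was then -0.13 without untreated replicate 3, where 10 of 15 were below 0, and -0.13 without TGF-β1 replicate 1, where 13 were; without untreated replicate 1 it was -0.38. Within slide 1, which holds untreated replicates 1 and 3 and TGF-β1 replicate 1, it was -0.44 with 15 of 15 below 0, and within slide 2, which holds the other 3 arrays, -0.19 with 12 of 15. With normexp background and the same percentile scaling the enzymes' median was -0.15 while that of all features was -0.16, so on that scale the enzymes lay level with the array; with normexp and quantile normalization it was -0.16 against -0.01.

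The start regions of these genes were read for short motifs, since SREBPs act on sterol genes together with the CCAAT-binding factor NF-Y. RefSeq windows of GRCm38.p6, from 250 bases before to 50 after a start site, existed for 22 of the 30 members (29 windows). The sterol enzymes had 15 windows, which belong to 12 genes, and there was none for Fdps, Fdft1 or Sqle. CCAAT was searched on both strands, where its other strand reads ATTGG. It was in 73.3% of the sterol enzymes' windows (11 of 15 windows, and 11 of the 12 genes). The share was 62.1% of the members' windows and 37.4% of all 32851 windows. The GC box GGGCGG was in 80.0%, 72.4% and 35.7%, and the E-box CACGTG in 20.0%, 17.2% and 7.15%. The classical sterol regulatory element, allowing any base at 1 position of its core, was in 0 of 29 member windows (0.234% of all windows). The LXR element, searched only as exact direct repeats 4 bases apart, was in 0 of 29 (0.0152%). Repeats that differ from the exact form at any base were not searched. The 0 therefore does not show that these windows, that of Abca1 among them, lack an LXR element. Both strands were searched for every motif. The shorter form CACNCCAC of the sterol element, searched after the longer one had given no match, was in 3 member windows (Acat2, Hmgcs1 and Insig1; 10.3%, against 6.24% of all). It lies within the longer form, so every match of that form would also be one of this. The 250 bases before the start are printed for the enzymes with the lowest change in each arm. These are Hmgcs1 (chr13:119690101-119690350, plus strand) and Hsd17b7 (chr1:169969206-169969455, minus strand). They are also printed for Sc5d (chr9:42264301-42264550, minus strand), which did not overlap between groups, and for the exporter Abca1 (chr4:53159896-53160145, minus strand), whose window holds no CCAAT. Each runs 5′ to 3′ in the gene's direction, and capitals mark CCAAT or CACNCCAC on either strand.
Hmgcs1: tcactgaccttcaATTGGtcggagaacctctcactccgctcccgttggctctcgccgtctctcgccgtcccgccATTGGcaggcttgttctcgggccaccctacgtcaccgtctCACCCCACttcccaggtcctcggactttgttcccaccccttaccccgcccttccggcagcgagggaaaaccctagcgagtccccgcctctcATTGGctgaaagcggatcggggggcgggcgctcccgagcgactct
Hsd17b7: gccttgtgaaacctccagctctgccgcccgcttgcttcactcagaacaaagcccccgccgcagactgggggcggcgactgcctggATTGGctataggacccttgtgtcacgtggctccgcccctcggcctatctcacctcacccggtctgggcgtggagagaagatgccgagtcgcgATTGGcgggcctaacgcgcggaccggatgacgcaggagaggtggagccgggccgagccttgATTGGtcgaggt
Sc5d: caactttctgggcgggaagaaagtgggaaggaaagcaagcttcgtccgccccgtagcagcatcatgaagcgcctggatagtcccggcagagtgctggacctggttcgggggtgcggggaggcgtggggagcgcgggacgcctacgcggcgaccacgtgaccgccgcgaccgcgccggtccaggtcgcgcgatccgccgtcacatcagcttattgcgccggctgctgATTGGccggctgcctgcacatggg
Abca1: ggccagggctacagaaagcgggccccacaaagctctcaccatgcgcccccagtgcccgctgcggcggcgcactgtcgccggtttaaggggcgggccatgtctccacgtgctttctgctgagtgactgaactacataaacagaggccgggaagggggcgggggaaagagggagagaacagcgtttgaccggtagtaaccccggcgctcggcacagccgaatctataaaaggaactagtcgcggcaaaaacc
Both Hmgcs1 and Hsd17b7 hold 3 CCAAT matches in these 250 bases and Sc5d holds 1, all as ATTGG. Like Abca1, the windows of Acat2, Acaca and Elovl6 held no CCAAT, although the changes of these enzymes were below 0. Windows of Srebf1, Srebf2 and Insig1 held it, with changes above 0, and Abcg1 had no window. A match describes the letters and was not tested for binding.

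Stard4, a carrier of cholesterol between membranes, read 3.22, 3.36 and 3.54 in untreated and 3.48, 3.13 and 3.34 in treated cells. Its change was -0.06 (SE 0.16, interval -0.44 to 0.32). On this probe, its brightest, it was higher in pair 1 and lower in the others. Its other probes, also well above background on all 6 arrays, were lower in all 3 pairs, with changes of -0.25 and -0.23.

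The 8 fatty acid enzymes were mixed: 6 were below 0, 4 were lower in all 3 pairs, and the median was -0.14 (-0.05, -0.06 and -0.39 by pair). None passed the test. The summed adipocyte markers were also lower in each pair, as were the mast cell and lymphoid sums. The part of these cells in the values was not tested. Acly, ATP citrate lyase, which supplies cytosolic acetyl-CoA to both routes, read 0.77, 0.68 and 1.05 in untreated cells (0.83 ± 0.19, SD, n = 3) and 0.55, 0.36 and 0.61 in treated cells (0.51 ± 0.13). The groups did not overlap, and the change was -0.33, or 1.25-fold lower (SE 0.16, interval -0.70 to 0.05, adjusted p = 0.983). Scd1, a desaturase that makes oleate, read 0.13, 0.59 and 0.81 against 0.01, 0.36 and 0.13, a change of -0.34 (SE 0.21). Its pair 3 difference was the largest, and the groups overlapped.

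Elovl6, which elongates palmitate, changed by -0.28 (SE 0.19) and Fasn, fatty acid synthase, by -0.19 (SE 0.21). Acaca, acetyl-CoA carboxylase, the committed step, changed by -0.10 (SE 0.17), but its probes disagreed, with changes of 0.23, -0.10 and -0.23. It was the only one of 15 members with several probes whose probes did not share a direction. Of the other desaturases, Scd2 changed by -0.04 (SE 0.15), and Fads1 and Fads2, which act on polyunsaturated fatty acids, by 0.08 (SE 0.13) and 0.11 (SE 0.16). The signs of Scd2 and Fads2 turned under other settings, among them the slide block for Scd2 (0.01) and within slide 1 for Fads2 (-0.09).

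**Figure D3:**
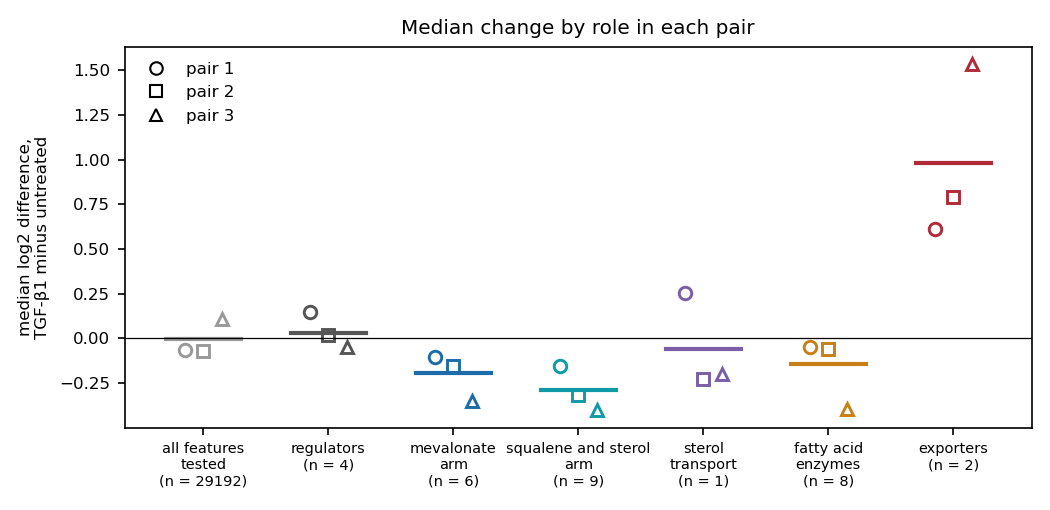
Median log2 difference by role; horizontal bars are medians of the fitted changes and open symbols the medians in each same-numbered pair, with the number of genes under each role. The exporters lie above 0 in every pair (0.61, 0.79 and 1.53) and the squalene and sterol arm below 0 in every pair, while all features lie near 0.

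The 2 cholesterol exporters had the highest changes of the set. The summed macrophage markers were also higher in each pair, though of these markers only Csf1r was itself higher in all 3 pairs. The part of macrophages in these values was not tested. Abcg1, which passes cholesterol to mature high density lipoprotein, read 1.45, 0.67 and 0.65 in untreated cells (0.92 ± 0.46, SD, n = 3) and 2.19, 1.75 and 2.09 in treated cells (2.01 ± 0.23). All treated arrays lay above all untreated ones, as for 5.37% of all features, and it was higher in all 3 pairs, by 0.74, 1.09 and 1.44, as were 14.1% of all features. The log2 change was 1.09, or 2.13-fold higher (SE 0.26, interval 0.47 to 1.71, adjusted p = 0.290). With the block the SE was 0.16, the interval 0.66 to 1.52 and the adjusted p 0.0948. Within slide 1 the difference was 1.14 and within slide 2 it was 1.25, and over all settings run it stayed between 0.91 and 1.35. Abcg1 passed the test under 2 of the settings added later, the authors' deposited values with the block (1.06, adjusted p = 0.0259, beside 2.46% of all features) and normexp with quantile normalization and the block (1.03, adjusted p = 0.0179, beside 3.38%).

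Abca1, which passes cholesterol to lipid-poor apolipoprotein, had a change whose size depended on harvest 3. It read -0.61, -0.51 and -2.50 in untreated cells (-1.21 ± 1.12, SD, n = 3) and -0.13, -0.02 and -0.87 in treated cells (-0.34 ± 0.47). It was higher in all 3 pairs, by 0.49, 0.50 and 1.63, but the groups overlapped because both arrays of harvest 3 were low. The log2 change was 0.87, or 1.83-fold higher (SE 0.56, interval -0.47 to 2.21, adjusted p = 1; SE 0.27 and adjusted p = 0.347 with the block). In pairs 1 and 2 alone it was 0.49. Without untreated replicate 3 alone, which leaves its low treated partner in, it was 0.22, within slide 1 it was 1.43 and within slide 2 it was 0.07.

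Among other genes of these pathways, 0 of 51 measured (55 listed) passed the test without or with the block. At an unadjusted p under 0.05 there were 5 without the block and 10 with it, beside 5.77% and 10.9% of all features. Of the 51, 33 were below 0 (beside 51.4% of all features), 19 were lower in all pairs (beside 20%) and 10 higher in all pairs (beside 14.1%). The 8 other measured genes listed under sterol synthesis were all below 0. They include Ggps1, Nus1 and Dhdds, which belong to side branches of the route that do not make sterols. The lowest was Msmo1, a sterol demethylase (-0.36, SE 0.20), with 4.86, 5.17 and 5.26 against 4.42, 4.78 and 5.01. The highest was Tm7sf2, a sterol reductase (-0.04, SE 0.21). Among the genes of SREBP processing, changes ran from Ubxn8 (-0.30, SE 0.20) to Rnf139, a ubiquitin ligase of the endoplasmic reticulum (0.29, SE 0.17).

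On the uptake and LXR side, 2 genes had changes near those of the exporters. Vldlr, a lipoprotein receptor, read -0.79, 0.03 and -1.99 against 0.28, 0.74 and -0.77, a change of 1.004 (SE 0.59; adjusted p = 0.0840 with the block). Its harvests differed (adjusted p = 0.0274), and its groups overlapped. Mylip, a ubiquitin ligase that degrades lipoprotein receptors and a known LXR target, was singled out after its values were seen: it read 0.18, -0.18 and -0.74 against 0.81, 0.69 and 0.32, a change of 0.86 (SE 0.27, adjusted p = 0.534, and 0.0942 with the block). Rxra, a partner of the LXRs, changed by 0.67 (SE 0.27), whereas Apoe, an apolipoprotein and LXR target, changed by -0.16 (SE 0.18). Over the 8 measured genes listed on the LXR side the median was 0.05, with 5 above 0 and 3 below. Within that list Lpcat3 changed by -0.01 (SE 0.16). The LXR genes Nr1h2 and Nr1h3 changed by 0.03 (SE 0.13) and 0.11 (SE 0.31). Of the other fatty acid genes, Acsl3, an acyl-CoA synthetase, had the highest change (0.60, SE 0.16, adjusted p = 0.369) and Mid1ip1, an activator of acetyl-CoA carboxylase, the lowest (-0.55, SE 0.20, adjusted p = 0.717).

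The level of many members also varied between harvests, though none passed the test of that variation. By the moderated F-test of the harvest terms with Benjamini-Hochberg adjustment, 0 of 30 members differed among harvests, beside 3.06% of all features. At an unadjusted p under 0.05 there were 11 of 30, beside 21.4%. The range over the 3 harvest means had a median of 0.43 over the members and 0.37 over all features. Harvest 3 had the highest mean for 19 of 30 members, beside 29% of all features, and for 11 of the 15 sterol enzymes. Hmgcs1 had harvest means of 4.95, 5.27 and 5.60. Lss spanned 0.75, the widest of the enzymes, and Scd2 spanned 0.04, the narrowest of the set. Abca1 went the other way, with harvest means of -0.37, -0.27 and -1.69 (adjusted p = 0.157). Harvest 3 is also the one in which stromal markers summed to under 2 multiples of the 75th percentile; the part of those cells in the levels of Abca1 or of the enzymes was not tested. With the authors' deposited values 5 members passed the harvest test (Fasn, Hmgcs1, Lss, Mvk and Nsdhl), beside 5.7% of all features.

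**Figure D4:**
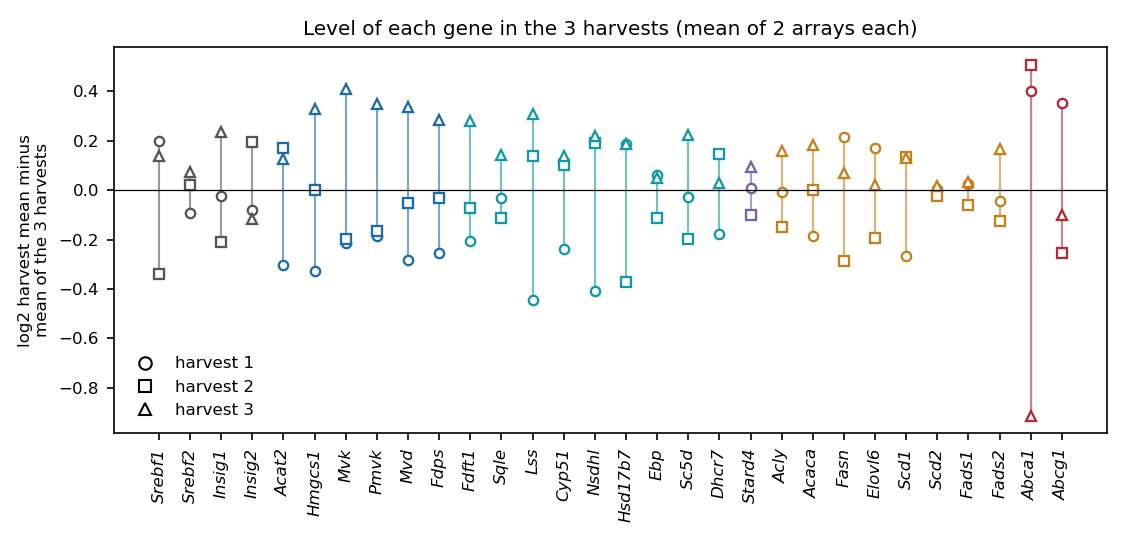
Mean log2 level of each gene in each of the 3 harvests (untreated and treated array averaged), relative to its mean over the harvests; symbols are harvests and vertical lines the range. Harvest 3 is highest for 19 of 30 genes, while for Abca1 it is lowest.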

How the data were processed

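Scanner output of 6 one-colour (Cy3) Agilent mouse arrays was used, scanned with Feature Extraction 10.1.1.1 on the mm8 design, per the file headers. The deposited intensity, the processed signal, was background-subtracted by that software. The series' table of deposited log2 values was an alternative; each column correlated at 0.99951 to 0.99989 with log2 median signal, while how it was normalized is not stated in the labels. The submitters' processing notes name limma.

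Control spots were left out and spots of a probe averaged without flagged outliers. Intensities were set to log2 minus the array's 75th percentile over 43379 spots. A probe passed if well above background on 3 or more of 6 arrays (36384 of 41174), and a gene was read from its brightest passing probe, giving 29192 genes and transcripts. Names came from RefSeq accessions (23374 probes). Groups were compared with limma 3.58.1 (R 4.3.3; lmFit, eBayes; Benjamini-Hochberg, threshold 0.05), tested on simulated data first. The median residual SD was 0.241 and, with the replicate block, 0.158; 6 arrays limit the precision. The design states 3 independent harvests; deviations of same-numbered arrays correlated at 0.607, 0.777 and 0.545 and those of other arrays at -0.725 to 0.0712, so the numbers pair the samples. Alternatives were the block, the slide, normexp (offset 50, on the median signal, as no mean signal was used), quantile normalization, the deposited values, other probe filters, the mean of probes and leaving out each array.

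Members and lists were chosen with earlier results of these data known. All members are named; of other pathway genes, those that passed or else the highest and lowest of each sub-list (1 is not reported here); of marker lists, the brightest. The brightest were Cd34 (progenitor), Mpo (granulocyte), Adgre1 (macrophage), Epor (erythroid), Pf4 (megakaryocyte), Cpa3 (mast cell), Dcn (stromal), Fabp4 (adipocyte) and Il7r (lymphoid). Summed marker signals in untreated and treated cells were 119.3 to 131.0 and 120.4 to 139.4 (progenitor), 670.6 to 779.8 and 672.5 to 690.6 (granulocyte), 0.186 to 0.268 and 0.217 to 0.256 (erythroid), 20.2 to 70.0 and 17.5 to 62.8 (megakaryocyte), 22.1 to 33.4 and 18.0 to 28.2 (mast cell), and 1.69 to 2.17 and 1.44 to 2.05 (lymphoid) multiples of the 75th percentile; no marker passed the treatment test.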

Additional observations from a re-analysis of the deposited data

How the results depend on the processing

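No member passed the test under the block, the slide, normexp, quantile normalization, the deposited values, the other probe rules or any array left out. The replicate block (harvest as a term) changed the call of no member and raised the count over all features from 74 to 190 (155 higher, 35 lower). That count was 5 with normexp, 171 with the deposited values and 7 to 23 with 1 array left out. Settings added after seeing the data gave 719 (deposited values with the replicate block; 1 member, 6 other pathway genes), 0 (normexp with the replicate block), 210 (normexp and quantile normalization; 1 other pathway gene) and 986 (the same with the replicate block; 2 members, 7 other pathway genes). The members' median was -0.059 within slide 2 and -0.252 to -0.021 with 1 array left out. The harvest test called 8 members with normexp (54.6% of all features) and 5 with the deposited values. The cause of these differences was not tested.

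The sign turned for several members with small changes. Srebf2 was -0.035 with the slide as a block, -0.029 with the deposited values, -0.021 with normexp and quantile normalization, -0.062 in pairs 1 and 2 alone and -0.091 within slide 1. Scd2 was 0.011, 0.013, 0.023, 0.12 and 0.055 in the same order, and 0.079 with normexp. Normexp also gave Insig1 -0.0082 and Stard4 0.032. The replicate block does not move these values. Pairs 1 and 2 alone gave Insig2 0.053 and Stard4 0.013. Within slide 1, Insig2 was 0.014, Stard4 0.098 and Fads2 -0.086; within slide 2, Mvk was 0.18, Pmvk 0.12, Fdps 0.023 and Fasn 0.066. With 1 array left out the ranges were -0.043 to 0.30 (Srebf1), -0.061 to 0.077 (Srebf2), -0.049 to 0.20 (Insig1), -0.16 to 0.063 (Insig2), -0.38 to 0.029 (Mvk), -0.32 to 0.031 (Pmvk), -0.41 to 0.029 (Mvd), -0.25 to 0.033 (Fdps), -0.24 to 0.17 (Nsdhl), -0.14 to 0.036 (Stard4), -0.22 to 0.017 (Acaca), -0.096 to 0.052 (Scd2) and -0.0043 to 0.23 (Fads2).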
